A study of Mus musculus with 4 samples.

Results

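The 34 genes described here mark the steps by which a marrow precursor becomes a neutrophil, and were listed by name from known roles, with earlier results of these arrays known. One probe set was named for 32 of the 34, out of 19938 named genes in all. Probe sets named for Fpr1 and Fpr2 alone, receptors for bacterial formyl peptides, were not found, so both receptors were not analysed here. The measured genes were grouped by the stage at which they are known to be made, as 5 primary granule genes, 3 transcription factors, 10 secondary and tertiary granule genes, 7 late genes and 7 myeloid genes of no single stage.

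Neutrophils arise in marrow through promyelocytes, myelocytes, metamyelocytes and band cells. Granule proteins are packed in the order in which their genes are switched on, so that the proteases of primary granules come first, antimicrobial proteins of secondary granules next, and surface receptors and gelatinase last. The factors C/EBP-alpha and PU.1 are known to start the programme, and C/EBP-epsilon and Gfi1 to carry it into the secondary granule stage. Myeloproliferative neoplasm (MPN) driven by a mutant JAK2 kinase is a disease of marrow in which mature myeloid cells are overproduced.

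RNA was taken from bone marrow cells of C57BL/6 mice with a Nes-gfp reporter, in which the nestin promoter drives green fluorescence. The sort kept fluorescent cells without CD45 (leukocytes), CD31 (endothelium) and Ter119 (erythroid cells). In the MPN group (n = 3 mice) the label of genotype is Nes-gfp;Mx1-cre;JAK2-V617F, and the animals had been transplanted 10 weeks earlier with marrow cells that carried the mutant JAK2 and the interferon-inducible Mx1-cre. In the control group (n = 1 mouse) the genotype is Nes-gfp, and control marrow cells had been given. The labels give neither the ages nor any conditioning before transplantation, so blood cells of the host itself may be present in both groups. Each array was taken as 1 mouse, following the titles.

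Levels are deposited RMA values on the log2 scale, where a difference of 1 is 2-fold. A background limit of 5.21 was taken from 1194 olfactory and vomeronasal receptor genes, as the 95th percentile of their means. Over all genes the median difference of MPN minus control was 0.179, and over the receptor genes 0.254, which is the shift against which the differences below should be read. The sort selected against CD45, yet Ptprc, its gene, was at 10.16, 9.46 and 10.40 in MPN mice 1, 2 and 3, against 7.07 in the control mouse. The marker genes of mesenchymal stroma went the other way, with a median level of 6.27, 5.89 and 6.22 in the MPN mice against 9.79 in the control mouse over 16 genes. Nes itself lay under the background limit on all 4 arrays.

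Promoters of 6 members are shown first, because the stages are known to use different transcription factors and the members were mostly higher together in MPN. Each sequence runs from 250 bases before to 50 bases after the start site in RefSeq's annotation of GRCm38.p6, and is printed on the gene's own strand. Capitals mark matches to 4 motifs, which are C/EBP (TTNNGNAA), PU.1 (GAGGAA) and RUNX (TGTGGT) on both strands and the TATA box (TATAAA) on the sense strand. The pair Elane and Prtn3 are neighbouring genes of primary granule proteases, and each holds 1 PU.1 match, at 85 and 95 bases before the start. Chil3, Ngp and Ltf stand for secondary granule genes with C/EBP matches, and Camp is a secondary granule gene with none of the 4 motifs in this window.
Elane (chr10:79886062-79886361, plus strand): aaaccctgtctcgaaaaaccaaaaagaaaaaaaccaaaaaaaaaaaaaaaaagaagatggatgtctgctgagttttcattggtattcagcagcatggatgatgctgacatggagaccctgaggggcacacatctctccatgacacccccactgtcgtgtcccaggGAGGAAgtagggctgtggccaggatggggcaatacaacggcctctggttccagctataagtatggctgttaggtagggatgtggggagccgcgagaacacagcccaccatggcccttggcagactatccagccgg
Prtn3 (chr10:79879417-79879716, plus strand): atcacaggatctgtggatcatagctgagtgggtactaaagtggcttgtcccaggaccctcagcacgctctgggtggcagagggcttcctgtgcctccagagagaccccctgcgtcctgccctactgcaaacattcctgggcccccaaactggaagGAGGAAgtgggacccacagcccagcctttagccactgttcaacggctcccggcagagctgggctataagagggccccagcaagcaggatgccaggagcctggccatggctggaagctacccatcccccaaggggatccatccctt
Chil3 (chr3:106167515-106167814, minus strand): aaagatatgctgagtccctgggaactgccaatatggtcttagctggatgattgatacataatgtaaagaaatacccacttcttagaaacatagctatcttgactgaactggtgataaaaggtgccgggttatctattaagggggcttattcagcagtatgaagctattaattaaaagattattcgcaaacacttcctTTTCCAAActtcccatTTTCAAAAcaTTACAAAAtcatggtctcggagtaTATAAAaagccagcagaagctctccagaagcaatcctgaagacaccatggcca
Ngp (chr9:110419558-110419857, plus strand): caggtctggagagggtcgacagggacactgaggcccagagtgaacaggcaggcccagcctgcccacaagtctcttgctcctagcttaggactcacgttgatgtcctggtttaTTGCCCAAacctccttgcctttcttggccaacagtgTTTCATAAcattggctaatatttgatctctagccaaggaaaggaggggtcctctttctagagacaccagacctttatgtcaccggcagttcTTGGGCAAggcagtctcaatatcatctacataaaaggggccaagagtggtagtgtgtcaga
Ltf (chr9:111019042-111019341, plus strand): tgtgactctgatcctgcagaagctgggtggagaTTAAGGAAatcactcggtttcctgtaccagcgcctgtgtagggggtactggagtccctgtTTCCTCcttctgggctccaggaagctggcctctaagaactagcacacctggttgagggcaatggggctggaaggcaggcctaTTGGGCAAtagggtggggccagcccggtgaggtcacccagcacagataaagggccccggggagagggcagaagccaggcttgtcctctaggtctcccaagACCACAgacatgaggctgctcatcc
Camp (chr9:109849407-109849706, minus strand): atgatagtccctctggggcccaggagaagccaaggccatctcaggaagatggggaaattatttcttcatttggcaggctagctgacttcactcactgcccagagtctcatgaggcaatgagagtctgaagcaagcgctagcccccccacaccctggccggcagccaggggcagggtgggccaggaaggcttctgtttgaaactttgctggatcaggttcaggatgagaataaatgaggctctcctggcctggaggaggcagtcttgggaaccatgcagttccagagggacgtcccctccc

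Promoter sequences were matched for 27 of the 32 measured members. The PU.1 letters were present in 5 of 5 primary granule promoters and 6 of 10 secondary and tertiary granule promoters, against 28.3% of the 27025 promoters of this length in the table. The C/EBP letters were present in 8 of 10 secondary and tertiary granule promoters, the pair without them being Camp and Pglyrp1, and in 1 of 5 primary granule promoters, that of Ms4a3, against 40.7% of all promoters. Among the 7 late genes, 2 promoters held the C/EBP letters and 2 held the PU.1 letters. The RUNX letters were present in 6 of the 27 member promoters, against 16.9% of all promoters, and the TATA box in 6 of the 27, against 8.88% of all promoters. No match overlapped another, and a match is only a run of letters in this window.

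Of the 32 members, 31 had a higher mean in MPN, against 66.5% of all genes. All 3 MPN mice lay above the control mouse for 29 of them, where this held for 46.8% of all genes. All 3 MPN mice lay below the control mouse for 1 member, Hp, against 21.1% of all genes. At least 2-fold higher on each of the 3 MPN arrays were 22 members, against 1.13% of all genes, and 0 members were at least 2-fold lower on each, against 5.78% of all genes. The median difference over the members was 2.62 on the log2 scale. None of the 32 passed limma's test at an adjusted p of 0.05, and 0 of all 19938 genes did (0%). With cyclic loess, with one median over the receptor genes and with a robust variance prior, 2, 1 and 1 members passed it, namely Camp in each and Elane in the first. Of all 19938 genes, 95, 153 and 167 passed it in those settings. At an unadjusted p under 0.05, 20 members were higher and 0 lower in MPN, against 3.97% of all genes higher and 8.63% lower. In a bulk sample, more cells of the neutrophil lineage and more of these transcripts per cell cannot be told apart. The 12 pan-leukocyte markers all had a higher mean in MPN, at a median level of 9.58, 8.98 and 9.82 in the MPN mice against 6.74 in the control mouse, and their part in the result was not tested.

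**Figure D1:**
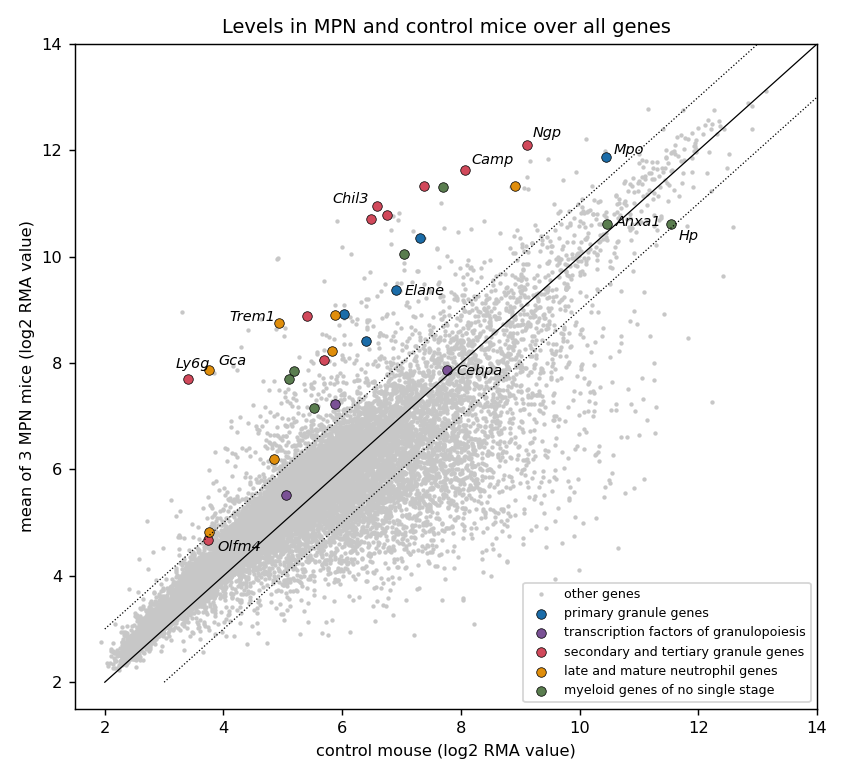
Mean level of the 3 MPN mice (vertical axis) against the level in the control mouse (horizontal axis), both as log2 RMA values, for all 19938 genes (grey) and the 32 members (coloured by stage). The solid line marks equal levels and the dotted lines a 2-fold difference. Most members lie above the upper dotted line, while Cebpa and Anxa1 lie near equality and Hp lies near the lower dotted line.

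Primary granule genes were already measurable in the control mouse and higher in every MPN mouse. Mpo, the myeloperoxidase that makes hypochlorous acid, was at 11.61, 11.87 and 12.15 in the MPN mice, against 10.45 in the control mouse. Its difference of 1.43 (SE 0.28, limma adjusted p = 0.220) was the smallest of the 5. Elane, neutrophil elastase, was at 9.27, 9.29 and 9.58 in the MPN mice, against 6.90 in the control mouse. Prtn3, the related protease 3, was at 8.41, 8.40 and 8.44 in the MPN mice, against 6.40 in the control mouse. The MPN mice spanned 0.31 for Elane and 0.035 for Prtn3, and the differences were 2.48 (SE 0.21, adjusted p = 0.0901) and 2.02 (SE 0.15, adjusted p = 0.0872).

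Ctsg, cathepsin G, the third protease of these granules, was at 10.00, 10.17 and 10.88 in the MPN mice, against 7.31 in the control mouse, a difference of 3.04 (SE 0.44, adjusted p = 0.154). Ms4a3, a membrane protein of granulocyte and monocyte precursors, was at 7.82, 9.32 and 9.65 in the MPN mice, against 6.02 in the control mouse (difference 2.91, SE 0.88). MPN mouse 1 was thus the lowest MPN mouse for Ms4a3, though it still exceeded the control mouse by 1.79. All 5 genes were at least 2-fold higher on each MPN array, and all 5 were highest in MPN mouse 3.

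The 3 transcription factors had a median difference of 0.45, and none of them was at least 2-fold higher on each MPN array. Cebpa, which encodes C/EBP-alpha, was at 7.98, 7.96 and 7.69 in the MPN mice, against 7.77 in the control mouse. MPN mouse 3 lay below the control mouse and the others above it. The difference of 0.10 (SE 0.21) was under the median shift of all genes and became -0.155 when the arrays were brought to one median of the receptor genes. Gfi1, a repressor needed for neutrophil maturation, was at 5.67, 5.44 and 5.42 in the MPN mice, against 5.06 in the control mouse, which is under the background limit. Cebpe, which encodes C/EBP-epsilon, was at 6.17, 6.60 and 8.92 in the MPN mice, against 5.87 in the control mouse. Only MPN mouse 3 stood far from the control mouse for Cebpe (difference 1.35, SE 1.32, adjusted p = 0.628), and without that mouse the difference was 0.51.

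**Figure D2:**
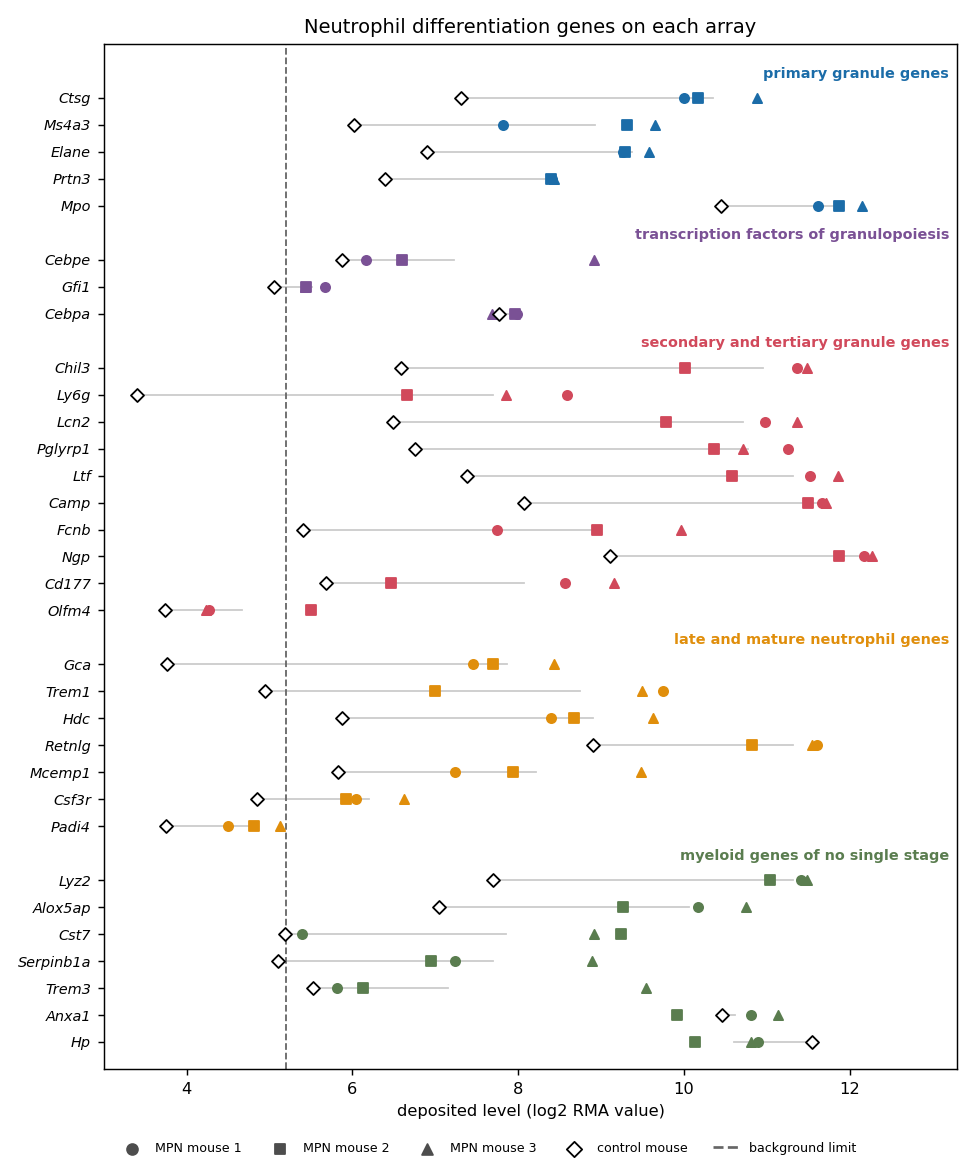
Level of each of the 32 members on each array (log2 RMA value), with filled symbols for the 3 MPN mice and an open diamond for the control mouse, grouped by stage and ordered by the difference. Grey lines join the control mouse to the mean of the MPN mice, and the dashed line is the background limit of 5.21. The open diamond lies left of all 3 filled symbols for 29 genes and right of them for Hp.

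Secondary and tertiary granule genes showed the largest differences of the 3 granule and maturation stages (median 3.74 over 10 genes). Of these genes, 8 were at least 2-fold higher on each MPN array. Camp, the cathelicidin antimicrobial peptide precursor, was at 11.67, 11.50 and 11.71 in the MPN mice, against 8.08 in the control mouse. Its MPN mice lay close together, and the difference of 3.55 (SE 0.18, adjusted p = 0.0872) was 11.7-fold. Ngp, a neutrophilic granule protein of the same protein superfamily, was at 12.17, 11.87 and 12.27 in the MPN mice, against 9.11 in the control mouse. Ltf, the iron-binding lactoferrin, was at 11.52, 10.58 and 11.86 in the MPN mice, against 7.38 in the control mouse. The differences were 2.99 (SE 0.23) for Ngp and 3.94 (SE 0.60) for Ltf.

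Lcn2, which binds bacterial siderophores, was at 10.98, 9.78 and 11.37 in the MPN mice, against 6.49 in the control mouse. Chil3, the chitinase-like protein Ym1, was at 11.36, 10.02 and 11.48 in the MPN mice, against 6.59 in the control mouse. The mean of Chil3 was 20.7-fold higher in MPN (adjusted p = 0.182), and that of Lcn2 18.7-fold (adjusted p = 0.190). Pglyrp1, a peptidoglycan recognition protein, was at 11.25, 10.37 and 10.72 in the MPN mice, against 6.76 in the control mouse, a difference of 4.02 (SE 0.42, adjusted p = 0.112). In all 3 genes MPN mouse 2 was the lowest of the MPN mice and remained more than 3 log2 units above the control mouse.

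Fcnb, the lectin ficolin B, was at 7.74, 8.95 and 9.96 in the MPN mice, against 5.41 in the control mouse. Its order among the MPN mice was that of Ms4a3, with MPN mouse 1 lowest. Ly6g, the surface antigen used to sort mouse neutrophils, was at 8.59, 6.66 and 7.86 in the MPN mice, against 3.40 in the control mouse. Since the control value is under the background limit, the MPN mean of Ly6g was at least 5.65-fold higher when the limit is put in the control's place. Cd177, a surface protein that holds protease 3 on human neutrophils, was at 8.57, 6.47 and 9.16 in the MPN mice, against 5.69 in the control mouse, and MPN mouse 2 lay only 0.78 above the control. Olfm4, found in a subset of neutrophils, was at 4.27, 5.50 and 4.24 in the MPN mice, against 3.74 in the control mouse. Olfm4 lay above the background limit in MPN mouse 2 alone, the mouse in which the other granule genes of this stage were mostly lowest.

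Genes of late and mature neutrophils gave a median of 2.42 over 7 measured genes, and 6 of them were at least 2-fold higher on each MPN array. Retnlg, a resistin-like secreted protein, was at 11.60, 10.82 and 11.54 in the MPN mice, against 8.90 in the control mouse (difference 2.42, SE 0.41). Gca, the calcium-binding grancalcin, was at 7.45, 7.70 and 8.44 in the MPN mice, against 3.76 in the control mouse. Trem1, an activating receptor that amplifies inflammation, was at 9.74, 6.99 and 9.50 in the MPN mice, against 4.94 in the control mouse. Both control values were under the background limit. Set against that limit, the MPN mean was at least 6.30-fold higher for Gca and at least 11.6-fold higher for Trem1. The spread of the MPN mice was wide for Trem1 (SD 1.52, n = 3), with MPN mouse 2 apart from the others.

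Hdc, which makes histamine from histidine, was at 8.39, 8.68 and 9.63 in the MPN mice, against 5.88 in the control mouse, a difference of 3.02 (SE 0.59, adjusted p = 0.220). Mcemp1, a membrane protein of mast cells and neutrophils, was at 7.24, 7.93 and 9.48 in the MPN mice, against 5.83 in the control mouse. Basophils and mast cells also express Hdc, and 9 of 10 of their markers had a higher mean in MPN, against 66.5% of all genes. None of the 10 was at least 2-fold higher on each MPN array, against 1.13% of all genes. Under the background limit on every array were 4 of them, as were 6938 of all 19938 genes. The 10 markers had median levels of 4.47, 5.34 and 4.91 in the MPN mice, against 4.32 in the control mouse. Mcpt8, a basophil protease, was at 4.79, 10.69 and 9.24 in the MPN mice, against 7.29 in the control mouse, so that MPN mouse 1 lay below the control and the others above it. Prss34, with the largest difference of that list (1.67, SE 1.22), was at 5.53, 8.26 and 6.92 in the MPN mice, against 5.23 in the control mouse. All 3 MPN mice lay above the control mouse for Prss34. The part of these cells in the Hdc result was not tested. The receptor for granulocyte colony-stimulating factor, Csf3r, was at 6.04, 5.93 and 6.62 in the MPN mice, against 4.84 in the control mouse. That control value is under the background limit, and set against the limit the MPN mean of Csf3r was at least 1.99-fold higher. Padi4, which citrullinates histones in neutrophil traps, stayed under the background limit on all 4 arrays, at 4.50, 4.82 and 5.13 in the MPN mice against 3.75 in the control mouse.

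The 7 myeloid genes of no single stage went different ways. Lyz2, the lysozyme of granulocytes and macrophages, was at 11.41, 11.03 and 11.49 in the MPN mice, against 7.70 in the control mouse. Its difference of 3.61 (SE 0.26, adjusted p = 0.0872) was 12.2-fold. Alox5ap, which serves 5-lipoxygenase in leukotriene synthesis, was at 10.16, 9.26 and 10.74 in the MPN mice, against 7.05 in the control mouse. Macrophages use Lyz2 too, and Csf1r, their growth factor receptor, was at 4.55, 5.10 and 5.84 in the MPN mice, against 4.55 in the control mouse. The median level of 15 monocyte and macrophage markers was 5.33, 5.76 and 5.30 in the MPN mice, against 5.12 in the control mouse, and 2 of them lay at least 2-fold from the control on each MPN array, 1 in either direction. The higher one was Ccr2, a chemokine receptor of monocytes, at 7.10, 9.96 and 8.46 in the MPN mice, against 5.02 in the control mouse, with MPN mouse 2 highest. The lower one was Mertk, a receptor by which macrophages take up dying cells, at 4.55, 4.58 and 4.48 in the MPN mice, against 6.79 in the control mouse. F13a1, of the same list, was at 6.84, 9.31 and 9.37 in the MPN mice, against 6.74 in the control mouse, with MPN mouse 1 close to the control. Of the 15 markers, 13 had a higher mean in MPN and 2 a lower one, where 66.5% of all genes had a higher mean. The part of monocytes in the Lyz2 result was not tested.

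The MPN mice were far apart for another 3 of these genes. Serpinb1a, an inhibitor of the neutrophil serine proteases, was at 7.24, 6.95 and 8.89 in the MPN mice, against 5.11 in the control mouse. Cst7, the protease inhibitor cystatin F, was at 5.40, 9.25 and 8.91 in the MPN mice, against 5.19 in the control mouse. Trem3, a receptor of the same family as Trem1, was at 5.81, 6.12 and 9.54 in the MPN mice, against 5.52 in the control mouse. MPN mouse 1 stood only 0.21 above the control mouse for Cst7 and 0.29 for Trem3, and the SD of the MPN mice was 2.13 and 2.07 (n = 3). Trem1 and Trem3 thus differed within mice, as MPN mouse 1 had the highest Trem1 value and the lowest Trem3 value of the group.

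Anxa1 and Hp did not share the direction of the granule genes. Anxa1, an anti-inflammatory phospholipid-binding protein that many cells make, was at 10.81, 9.92 and 11.14 in the MPN mice, against 10.46 in the control mouse. The MPN mice lay on both sides of the control for Anxa1, and its difference of 0.16 (SE 0.58) turned to -0.0925 without MPN mouse 3, -0.115 after repeated quantile normalisation, -0.0358 after cyclic loess and -0.0918 with one median of the receptor genes. Hp, the haemoglobin-binding haptoglobin, which liver and fat make as well as neutrophils, was at 10.89, 10.13 and 10.81 in the MPN mice, against 11.54 in the control mouse. All 3 MPN mice were lower for Hp, with a difference of -0.93 (SE 0.40, adjusted p = 0.439) that ran from -1.20 to -0.69 over the settings tried. Of 16 mesenchymal stromal markers, 14 had a lower mean on the same arrays, against 6671 of all 19938 genes. The part of stromal cells in the Hp result was not tested.

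Set side by side, the stages differed in size more than in direction. The primary granule genes had median differences of 2.01, 2.39 and 2.68 in MPN mice 1, 2 and 3, each relative to the control mouse. For the secondary and tertiary granule genes these were 3.87, 3.28 and 4.21, and for the late genes 2.52, 2.05 and 3.65. The secondary granule median exceeded the primary one by 1.86, 0.89 and 1.53 in the 3 mice, and the late median minus the secondary one was -1.35, -1.23 and -0.56. Late and primary medians had no fixed order, since their difference was 0.50 and 0.97 in MPN mice 1 and 3 and -0.34 in MPN mouse 2. All these differences share 1 control mouse and genes of one array are not replicates, so no test of the stages was made. Among members above the background limit on every array, the medians were 2.48 over 5 primary, 3.74 over 8 secondary and tertiary and 2.42 over 3 late genes. Single genes of these overlapped, as their differences ran from 1.43 to 3.04, 2.38 to 4.37 and 2.39 to 3.02.

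**Figure D3:**
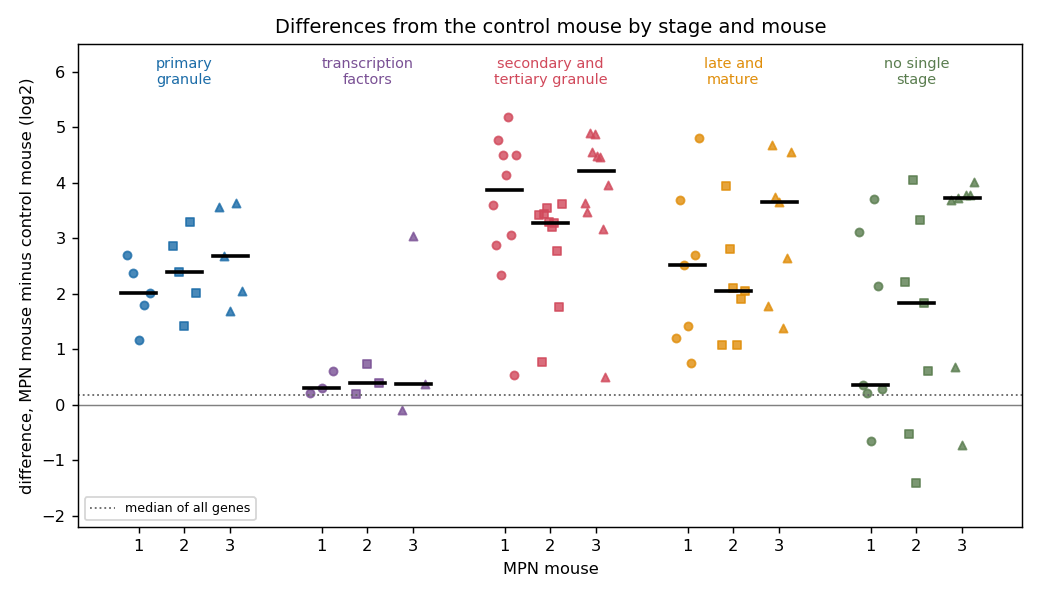
Difference of each MPN mouse from the control mouse (log2) for every member, grouped by stage, with a bar at the median of the stage in each mouse and a dotted line at the median of all genes (0.179). In each mouse the bar of the secondary and tertiary granule genes lies above those of the primary and late genes.

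The MPN mouse with the lowest value was not the same at each stage. MPN mouse 3 had the highest value of the group for 23 of 32 members, against 28.1% of the 11966 genes above the background limit. MPN mouse 2 had the lowest value for 8 of 10 secondary and tertiary granule genes and MPN mouse 1 for 4 of 5 primary granule genes, against 26.6% and 25.2% of genes above the limit. Among the 7 late genes no MPN mouse stood out as lowest, since this was MPN mouse 1 for 4 and MPN mouse 2 for 3. Some of these ranks rest on very small gaps. In MPN mice 1 and 2, Elane was at 9.27 and 9.29 and Prtn3 at 8.41 and 8.40. The range among MPN mice was smallest for Prtn3 (0.035), Camp (0.21) and Gfi1 (0.24) and largest for Cst7 (3.85), Trem3 (3.73) and Cebpe and Trem1 (2.75 each). The 13 proliferation markers had median levels of 7.18, 7.45 and 7.77 in the MPN mice, against 6.08 in the control mouse. Single markers were not all in that order, since MPN mouse 1 was the lowest of the group for 7 of the 13 and MPN mouse 2 for 4, while MPN mouse 3 was the highest for 8 and MPN mouse 2 for 5. Mki67, a marker of dividing cells, was at 7.25, 8.54 and 9.48 in the MPN mice, against 6.89 in the control mouse. These orders over 3 mice are descriptions, and no test was made of them.

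**Figure D4:**
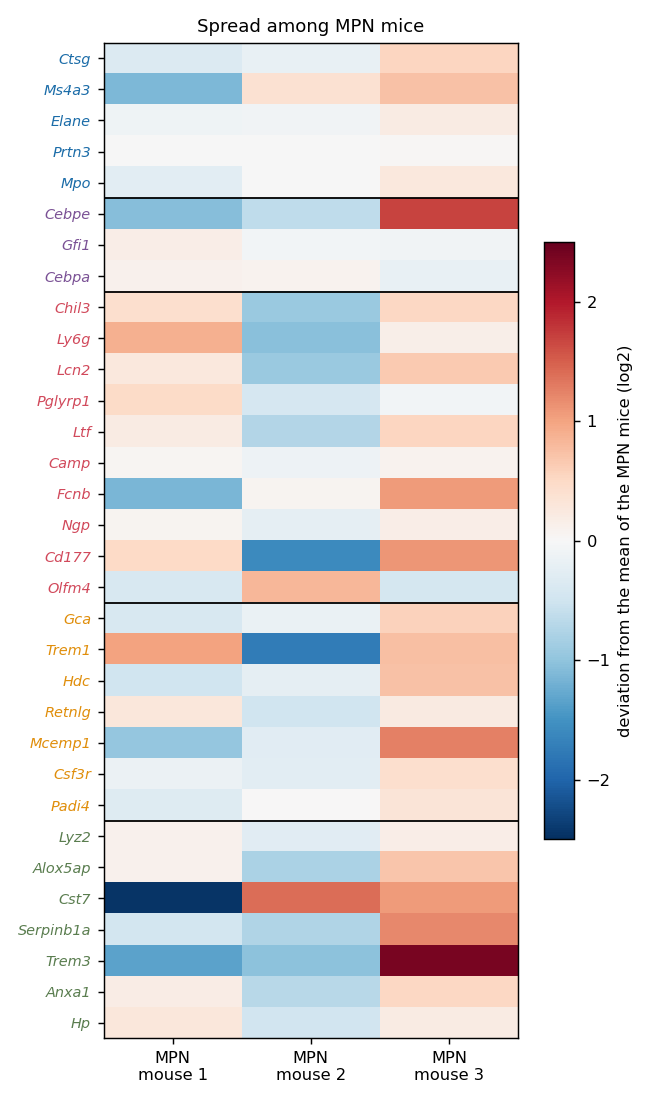
Deviation of each MPN mouse from the mean of the 3 MPN mice (log2, colour scale) for each member, with lines between the stages and gene names coloured by stage. MPN mouse 3 is above the mean for most genes, MPN mouse 2 is below it for most secondary and tertiary granule genes, and MPN mouse 1 is lowest for Cst7.

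Another 39 genes outside the members, listed as other neutrophil genes, gave a smaller median difference, 1.58. Of the 39 genes, 35 had a higher and 4 a lower mean, where 66.5% of all genes had a higher mean. Of the 39, 16 were at least 2-fold higher on each MPN array, against 1.13% of all genes. At an unadjusted limma p under 0.05, 18 were higher and 1 lower, against 3.97% and 8.63% of all genes. The adjusted threshold was passed by 0 of them, and by 0 of all genes. The one lower gene, chosen after its values were seen, was Cebpd, which encodes C/EBP-delta (difference -0.68, SE 0.15). The list is broad and holds genes not particular to neutrophils, among them Per3, Lbp, Prom1 and Gfi1b. The 4 lower means were those of Bpi, Lbp, Cebpd and Per3, and the part of the list's make-up in its median was not tested. Mmp8, the collagenase of secondary granules, was higher in all 3 MPN mice (difference 4.77, SE 0.41, adjusted p = 0.0918). Cxcr2, the chemokine receptor that lets mature neutrophils leave marrow, was at 9.78, 4.20 and 9.46 in the MPN mice, against 3.84 in the control mouse. Cxcr2 thus lay under the background limit in MPN mouse 2, the mouse with the lowest Trem1, Cd177 and Ly6g values. MPN mouse 2 was the lowest of the group for 25 of the 39 genes.

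**Figure D5:**
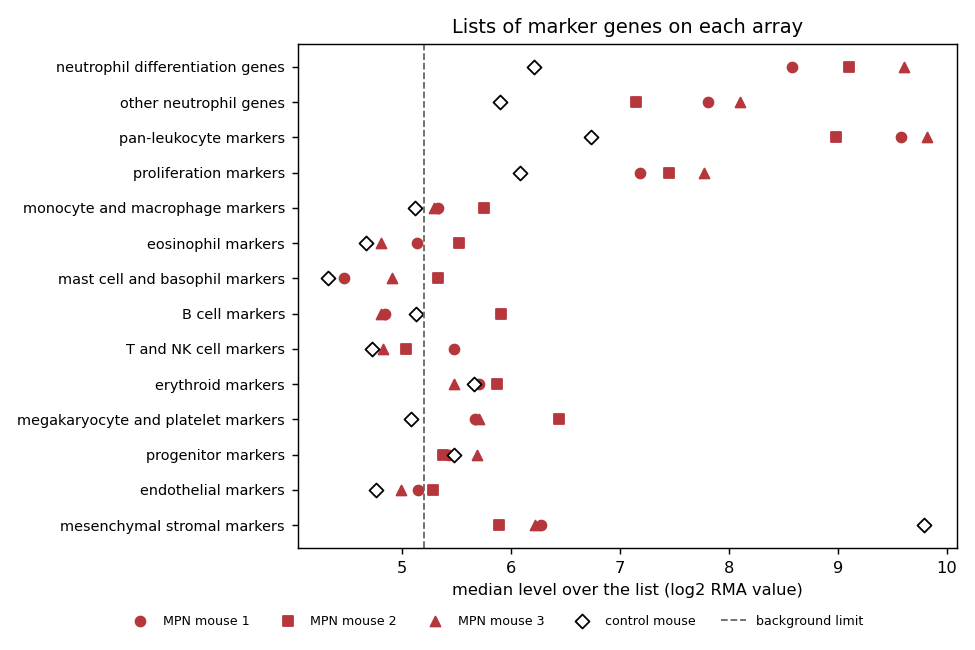
Median level of each list of genes (log2 RMA value) in the 3 MPN mice (filled symbols) and the control mouse (open diamonds), with the background limit dashed. The MPN symbols lie to the right of the control mouse for most lists, by more than 1 log2 unit in all 3 mice for the neutrophil, pan-leukocyte and proliferation lists, and to its left for the mesenchymal list.

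Markers of other blood cells were mostly near the background limit, with exceptions on some arrays. Epx, the eosinophil peroxidase related to Mpo, was at 4.45, 4.74 and 4.59 in the MPN mice, against 4.30 in the control mouse, and 7 eosinophil markers had median levels of 5.14, 5.52 and 4.81 in the MPN mice, against 4.67 in the control mouse. Markers of B cells, T and natural killer cells, erythroid cells, megakaryocytes and endothelium included 0 genes at least 2-fold higher on each MPN array. That count is near the share of all genes, 1.13%. In the same order, 7 of 9, 9 of 10, 7 of 8, 8 of 8 and 8 of 8 markers had a higher mean in MPN, against 66.5% of all genes. Single markers stood far above the limit on some arrays. Prg2, of the eosinophil list, was at 5.14, 9.20 and 4.99 in the MPN mice, against 4.70 in the control mouse. Vpreb1, of the B cell list, was at 4.36, 11.26 and 4.80, against 9.64 in the control mouse. Pf4, of the megakaryocyte list, was at 6.29, 8.35 and 5.89, against 5.03 in the control mouse. The part of these cells was not tested. Many of the proteins named here have close relatives, and the probes were not checked for matches to them.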

How the data were processed

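RNA of sorted marrow cells from 3 MPN mice and 1 control mouse was amplified and hybridised to Affymetrix mouse gene arrays, per the labels. The authors deposited log2 values computed with RMA, per the submitters' processing notes (version not given in the sources used here, nor a genome build). RMA corrects background, normalises arrays to each other and combines probes, which compresses differences near background. Arrays have no read depth, and their number limits precision.

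Of 35556 probe sets, 21789 had 1 gene symbol, 1621 had several and 12146 were unnamed here. By gene identifier, 21698 were matched to RefSeq, and 0 symbols changed. For each gene the probe set of highest mean level (4 arrays) was used. The test was limma's moderated two-sided one (limma 3.58.1, R 4.3.3), and p-values were adjusted by Benjamini-Hochberg across the 19938 genes. Its 2 residual degrees of freedom come from the MPN mice, beside a prior of 1.39, and the lone control is assumed to vary like them. SE belongs to the difference, and SD to the MPN mice. The MPN values were identical in 134 genes, whose zero variance limma moderated with the prior like that of any other gene. A fold written as "at least" puts the background limit in place of a control value under it. It is taken from the mean of the MPN mice, so a single mouse can lie below it.

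Of the steps, only the limma fit was tested on simulated data. Members and lists were chosen with earlier results of these data known. Every measured member is named, with up to 5 genes of each other list by size of difference, and Ptprc, Nes, Csf1r, Epx, Mcpt8 and Mki67. Cebpd, Bpi, Lbp, Per3, Prom1 and Gfi1b fall outside this rule and were chosen after their values were seen. The alternatives were leaving out each MPN mouse, averaging probe sets, removing genes under the limit, repeated quantile normalisation, cyclic loess, one median over all or over receptor genes, and a robust variance prior with an intensity trend.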

Additional observations from a re-analysis of the deposited data

How the results depend on the processing

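Each member's difference was recomputed under 10 alternatives. Averaging probe sets could not change it, since every measured member had 1 probe set. Removing genes under the limit and the robust variance prior could alter only the p-values, not the difference. The direction of a member was therefore fixed in those settings, and they add nothing on direction. Of 318 recomputed values, 309 kept their direction and stayed past or short of the adjusted threshold as before, and 4 newly passed it. Those were Camp after cyclic loess (adjusted p = 0.0485), with one median over receptor genes (0.0477) and with the robust variance prior (0.0414), and Elane after cyclic loess (0.0485). Over all its settings the limma adjusted p ran from 0.0414 to 0.453 for Camp and from 0.0485 to 0.453 for Elane. The count of members past the threshold was accordingly 2, 1 and 1 in those 3 settings, and that of all genes 95, 153 and 167. The other 5 values changed sign, 4 for Anxa1, namely -0.0925 without MPN mouse 3, -0.115, -0.0358 and -0.0918 (repeated quantile normalisation, cyclic loess and one median over receptor genes), and 1 for Cebpa (-0.155 with one median over receptor genes). The cause was not tested. Without MPN mouse 2 the Anxa1 difference was 0.515. Leaving out any 1 MPN mouse gave 16 to 18 members higher at an unadjusted p under 0.05, 22 to 24 at least 2-fold higher on each remaining array, and a median over the members of 2.34 to 2.92. No paired analysis was possible because there is 1 control mouse and its label carries no number. The control was under the background limit for 9 members, so the size of those differences is uncertain, and Padi4 and Olfm4 had means under it in both groups.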
